A study of Mus musculus with 30 samples.

Results

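The glucocorticoid receptor and 6 of its target genes were followed through mouse liver RNA: Nr3c1, which encodes the receptor, and Setdb2, Fkbp5, Tsc22d3, Sgk1, Zbtb16 and Tat. These 7 genes were taken by symbol from the 29117 genes in the table, and each symbol had a single row. The samples were the left liver lobe of 10-week-old C57BL/6J mice that had fasted for 12 to 16 h and then received an intraperitoneal injection of human insulin at 0.7 U/kg or of phosphate-buffered saline (PBS). Livers were taken at 5 points within 4 h, with 3 libraries for each treatment and point, 30 in all. The labels number the points from 1 to 5 and do not give their minutes, so no time is attached to a point here, and there is no uninjected group. The fast, the strain and the injection were common to both treatments, so PBS livers were fasted and injected livers, not undisturbed ones.

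Glucocorticoids are adrenal steroids that rise with fasting and with stress. The receptor waits in the cytoplasm in an Hsp90 chaperone complex, enters the nucleus when it binds hormone, and regulates genes from response elements (GREs) whose textbook form is an inverted repeat with a short spacer. In liver it is known for driving amino acid breakdown and glucose output during fasting, the programme that insulin opposes.

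Values are FPKM, a fragment count scaled for transcript length and library size, so levels can be compared between genes. Differences are insulin minus PBS on the log2(FPKM + 1) scale with a standard error (SE), and a gene is called at an adjusted p under 0.05 over the 13589 genes tested. All 7 genes read above 1 FPKM in all 30 libraries, and so passed the filter on low values. Tat was the most abundant, at a median of 802 FPKM over the 30 libraries (364 to 1609), above every library's value of the other 6 genes. Fkbp5 (median 60.9, range 13.6 to 102) and Tsc22d3 (56.8, 21 to 134) came next, with ranges that overlapped. Nr3c1 (14.1, 11.6 to 16.4), Zbtb16 (10.6, 1.13 to 19.3), Sgk1 (8.69, 5.35 to 34.8) and Setdb2 (4.88, 2.28 to 26.1) were lower, and among these 4 the neighbours in this order overlapped.

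Insulin libraries were run on lanes 1 and 2 (6 and 9 libraries) and PBS libraries on lanes 3, 4 and 5 (5 each). In every difference between insulin and PBS at a point, the lane and the treatment therefore cannot be told apart. Among PBS points the lanes were balanced, with 1 library of each point on each of lanes 3, 4 and 5. Within insulin, replicate 2 alone was on lane 1 at points 1 to 4, and replicates 1 and 2 were at point 5. Insulin points 1 to 4 thus had the same lane make-up, and point 5 differed from them. The part of the lane in differences among insulin libraries or points was not tested. The median of all genes tested lay at -0.06, -0.12, -0.14, -0.14 and -0.17 at points 1 to 5, and rescaling the libraries brought it to within 0.02 of 0. Under median-ratio scaling the calls over all genes at point 5 split into 1166 higher and 1119 lower, against 402 and 2194 as deposited. At point 4 the split moved likewise, from 383 and 1416 to 924 and 814, at point 3 from 298 and 986 to 689 and 488, and at point 2 from 84 and 100 to 147 and 57. Each call on the 7 genes given below held under that scaling and under quantile normalization, except that of Setdb2 at point 3. Hepatocyte markers dominated all libraries, with a summed level of 35192 to 48086 FPKM in insulin and 37828 to 49101 FPKM in PBS. The sum of 6 sinusoidal endothelial markers ran from 42.9 to 69.1 FPKM in insulin and from 63 to 82.7 FPKM in PBS. That of 6 Kupffer cell markers ran from 48.3 to 104 and from 63.2 to 185. In whole tissue, fewer cells of a type and less RNA per cell cannot be told apart.

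The comparison of treatments at each point asks how the livers of insulin-injected mice differed from those of PBS-injected mice. None of the 7 genes was called at point 1, 1 at point 2 (Sgk1, higher), 3 at point 3 (Sgk1 higher, Fkbp5 and Setdb2 lower), 1 at point 4 (Tat, higher) and 3 at point 5 (Setdb2, Tat and Zbtb16, all higher). Over all genes tested, 0.00736%, 1.35%, 9.45%, 13.2% and 19.1% were called at the same points. At point 1 limma with Benjamini-Hochberg adjustment called 1 gene of the 13589, and 2 of the 7 genes and 1078 of all genes had an unadjusted p under 0.05. The 3 insulin libraries lay wholly apart from the 3 PBS libraries in 2, 5, 5, 2 and 3 of the 7 genes over points 1 to 5. Of all genes tested, 9.43%, 23.5%, 35.5%, 32.4% and 35.4% did so. The median difference of the 7 genes was -0.15, -0.15, -0.13, 0.24 and 0.13.

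**Figure D1:**
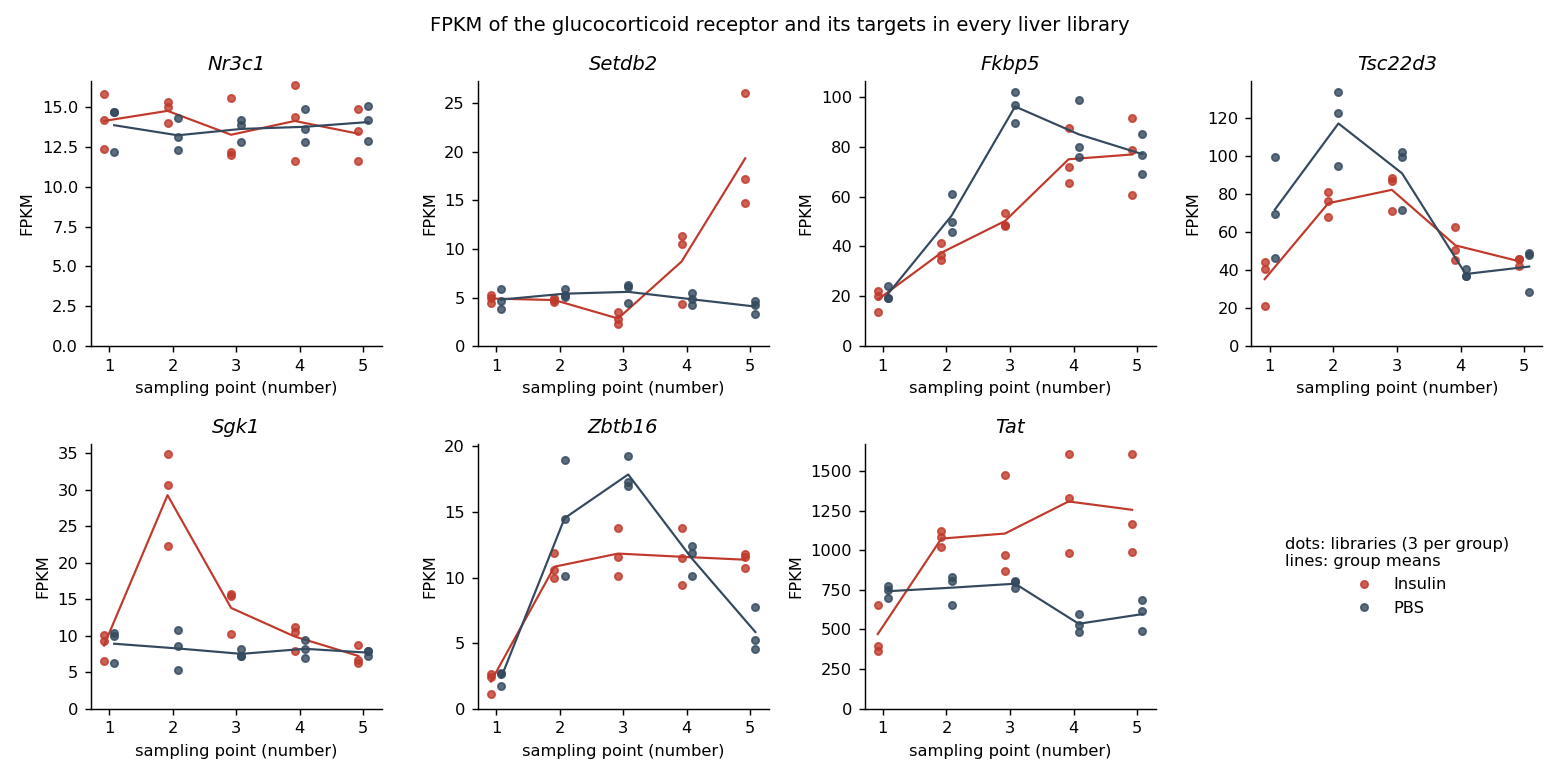
Level of each of the 7 genes in FPKM (vertical axes, from 0) at sampling points 1 to 5 (horizontal axes), with 1 dot per library and a line through the mean of the 3 libraries of each treatment and point. Nr3c1 stays between 11.6 and 16.4 FPKM, whereas Sgk1 stands out in insulin at point 2, Setdb2 in insulin at point 5 and Fkbp5 in PBS at point 3.

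The transcript of the receptor itself did not separate the treatments. Nr3c1 read 14.2, 12.4 and 15.8 FPKM in the 3 insulin libraries of point 1 and 14.7, 14.7 and 12.2 in the PBS libraries. At point 4 the insulin libraries read 11.6, 14.4 and 16.4 and the PBS libraries 14.9, 13.6 and 12.8. The 2 treatments overlapped at all 5 points, and group means ran only from 13.2 to 14.8 FPKM. Differences were 0.03, 0.15, -0.04, 0.02 and -0.08 (SE 0.12 each), with adjusted p from 0.55 to 0.974. Its level was not found to vary among points in insulin (adjusted p = 0.889) or in PBS (adjusted p = 0.996). Nr3c1 also had the tightest replicates of the 7 genes, with a pooled SD of 0.14 log2 units, at percentile 12.8 of all genes tested. Total transcript says nothing of receptor protein or of its place in the cell. Nr3c1 lies on chromosome 18 (39410545 to 39519421, minus strand, GRCm38), with 9 annotated transcripts that the gene-level value pools.

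Setdb2 showed the widest difference of the 7 genes, at point 5, after a call in the other direction at point 3. Its product carries a SET domain of the kind found in histone H3 lysine 9 methyltransferases, and in fasted liver it is known as a glucocorticoid-induced protein that acts with the receptor at Insig2. At point 3 the insulin libraries read 2.28, 2.78 and 3.46 FPKM and the PBS libraries 6.29, 4.39 and 6.07. At point 5 they read 14.7, 17.2 and 26.1 in insulin and 4.27, 4.6 and 3.34 in PBS. Both sets stood apart, with insulin below PBS at point 3 and above it at point 5. The difference at point 5 was 1.97 (SE 0.23, adjusted p = 8.19e-06), from means of 19.3 ± 5.99 (SD, n = 3) and 4.07 ± 0.657 FPKM, 4.75-fold. At point 3 it was -0.78 (SE 0.23, adjusted p = 0.0345). That call ended under median-ratio scaling (adjusted p = 0.0742), quantile normalization (0.0753) and no filter (0.0795), and without insulin replicate 1 (0.125) or 2 (0.0859) or PBS replicate 1 (0.11) or 3 (0.112).

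Point 4 of Setdb2 hinged on 1 library. Insulin replicates 1 and 3 read 10.5 and 11.3 FPKM, while replicate 2 read 4.33, inside the PBS range of 5.43, 4.2 and 4.83. The difference was 0.65 (adjusted p = 0.0602), and without insulin replicate 2 it was 1.03 (adjusted p = 0.00353). The same library also had the lowest Tat, Zbtb16 and Tsc22d3 of its group, at 985, 9.47 and 45.6 FPKM. For Sgk1 it was the highest, at 11.2 FPKM, and for Fkbp5 (71.9) and Nr3c1 (14.4) it lay between replicates 1 and 3. It was the only library of its group on lane 1, with replicates 1 and 3 on lane 2. Lane and library cannot be told apart there. The Setdb2 difference at point 4 was also called under median-ratio scaling (adjusted p = 0.024) and quantile normalization (0.021). At points 1 and 2 the differences were 0.04 and -0.15, and all 12 libraries lay between 3.83 and 5.87 FPKM. In PBS, Setdb2 stayed between 3.34 and 6.29 FPKM at all points and was not found to vary among them (adjusted p = 0.839), while in insulin it varied (adjusted p = 7.11e-07).

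Setdb2 spans 59402009 to 59440884 on the minus strand of chromosome 14, and the gene whose values over the 30 libraries were most like its own was the neighbouring Phf11c (Pearson r of 0.89 on the log2 scale). Phf11c encodes a protein with a PHD finger, a chromatin-reading fold. Its 3 insulin libraries at point 5 read 3.06, 2.70 and 6.60 FPKM and its PBS libraries 0.852, 0.944 and 1.03. All 3 lay above PBS, and the difference was called (1.32, SE 0.19, adjusted p = 0.000134). The libraries of point 4 read 1.88, 1.29 and 1.81 against 0.892, 0.766 and 0.560, a difference of 0.61 (adjusted p = 0.0389). That call at point 4 ended without any 1 of the 6 libraries (adjusted p from 0.0571 to 0.151), without the filter (0.0742) and in a fit of those 6 libraries alone (0.0926). As with Setdb2, insulin replicate 2 was the lowest of its group at point 4. Phf11c belongs to a family of near-identical neighbouring copies, so the share of reads given to it by the authors' quantification is uncertain. Phf11d, of the same family, was under the filter and not tested. At point 5 it read 0.763 to 0.860 FPKM in insulin and 0 to 0.581 in PBS. The difference depended on the point in Phf11c (adjusted p = 0.00857), as it did in Setdb2 (adjusted p = 0.000128).

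Other neighbours, chosen after their values were seen, differed less. Cab39l, on the other side of Setdb2, had a difference of 0.38 at point 5 (adjusted p = 0.0255) with overlapping libraries, from means of 26.7 ± 3.10 and 20.4 ± 3.65 FPKM. Rcbtb1 (0.28, adjusted p = 0.148) and Cdadc1 (0.03, adjusted p = 0.891) were not called there. Insig2, the anchor that holds sterol sensors in the endoplasmic reticulum and the gene at which Setdb2 is known to act, was called at no point. Its means at point 5 were 230 ± 70.5 FPKM in insulin and 154 ± 36.6 in PBS, with overlapping libraries (difference 0.55, adjusted p = 0.136). At point 3, where Setdb2 was called lower, Insig2 read 195 ± 39.9 and 210 ± 6.88 FPKM (difference -0.12, adjusted p = 0.8).

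**Figure D2:**
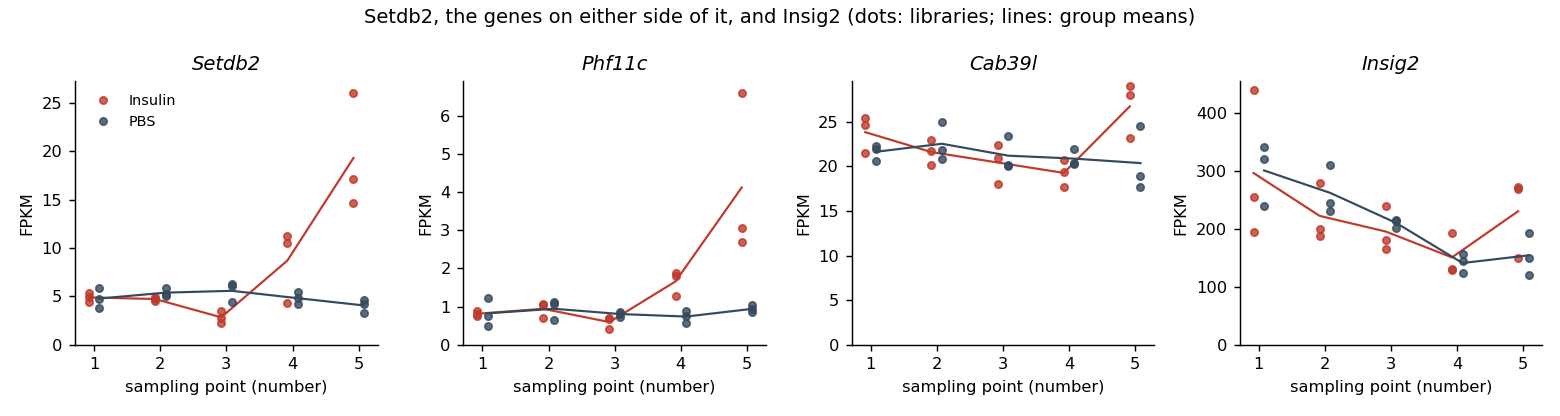
Levels of Setdb2, of the genes on either side of it (Phf11c and Cab39l) and of Insig2 in FPKM (vertical axes, from 0) at points 1 to 5, with 1 dot per library and lines through the means of 3 libraries. Setdb2 and Phf11c share the high insulin libraries at point 5, while Cab39l and Insig2 overlap between treatments at all 5 points.

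Fkbp5 was lower in insulin at point 3 and alike in mean at point 5. It encodes FKBP51, an Hsp90 co-chaperone that restrains the receptor and is itself a receptor target, a short feedback loop. At point 3 the insulin libraries read 53.6, 48.2 and 48.8 FPKM and the PBS libraries 89.7, 96.9 and 102. The groups lay far apart, with a mean 1.92 times higher in PBS. The difference was -0.93 (SE 0.16, adjusted p = 0.00114). At point 2 insulin read 36.6, 34.7 and 41.2 and PBS 46, 61 and 50, also apart, but the difference of -0.46 was not called (adjusted p = 0.15). By point 5 the groups overlapped (60.7, 78.6 and 91.5 in insulin, 69.1, 85.3 and 76.8 in PBS), with a difference of -0.02.

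Fkbp5 varied among points in both treatments, in insulin (adjusted p = 1.60e-08) as in PBS (adjusted p = 4.26e-08). In insulin its mean went from 18.7 ± 4.49 FPKM at point 1 through 37.5 ± 3.31, 50.2 ± 2.99 and 75 ± 11.5 to 76.9 ± 15.4 at point 5. In PBS it went from 20.9 ± 2.66 through 52.4 ± 7.75 to its highest value, 96.3 ± 6.32, at point 3, and then 85 ± 12.2 and 77.1 ± 8.13. That the insulin-PBS difference depends on the point was not shown for Fkbp5 (adjusted p = 0.15). Its locus (chromosome 17, 28399094 to 28517527, minus strand) contains the antisense gene AC154912.1, at a mean of 3.16 FPKM, and the strand setting of the quantification is not given in the sources used here.

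Tsc22d3 had the loosest replicates of the 7 genes (pooled SD 0.33, percentile 82.2) and was called at no single point. It encodes GILZ, a leucine zipper protein that carries much of the anti-inflammatory action of glucocorticoids. At point 1 insulin read 21, 44.3 and 40.5 FPKM and PBS 69.8, 99.7 and 46.2. At point 4 insulin read 50.7, 45.6 and 62.9 and PBS 36.7, 40.5 and 36.7. The groups did not overlap at either point, and insulin lay below PBS at point 1 and above it at point 4. The differences were -1.01 (SE 0.25, adjusted p = 0.323) and 0.46 (SE 0.25, adjusted p = 0.215).

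The change of this difference from point 1 to point 4 was tested itself, and for Tsc22d3 it was 1.47 (SE 0.35, adjusted p = 0.0467). The 2 points were picked because earlier results of these data had receptor targets lower at point 1 and higher at point 4. The test is therefore not independent support. The change was called in 2 of the 7 genes, the other being Tat, and in 0.787% of all genes tested (0.464% upward, 0.324% downward). For Tsc22d3 the call was lost without the filter (adjusted p = 0.124), without insulin replicate 1 (0.192), 2 (0.0816) or 3 (0.144), and without PBS replicate 1 (0.238) or 2 (0.122), with that replicate dropped at every point. Its PBS means over points 1 to 5 were 71.9 ± 26.8, 117 ± 20.2, 91.1 ± 17, 38 ± 2.17 and 41.9 ± 11.5 FPKM. In insulin the means were 35.2 ± 12.5, 75.3 ± 6.89, 82.3 ± 9.51, 53.1 ± 8.88 and 44.7 ± 2.2. Both treatments varied among points (adjusted p = 0.00324 in insulin and 0.000562 in PBS). The insulin call was lost without replicate 1 (adjusted p = 0.134) or 3 (0.0528) of the insulin livers. Tsc22d3 lies on the X chromosome (140539528 to 140600659, minus strand).

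Sgk1 encodes a kinase of the AKT family that is activated through PI3-kinase and is transcribed in response to glucocorticoids and to serum. Among the 5 genes with annotated upstream windows, Sgk1 was the only one with a palindromic GRE in them. The RefSeq table (GRCm38.p6) held windows of 250 bases before annotated starts for 5 of the 7 genes (Fkbp5, Tsc22d3, Sgk1, Tat and Setdb2, 12 windows in all). Of these 12 windows, 6 were of Sgk1, so more sequence was searched for it than for any other gene. Nr3c1 and Zbtb16 had none. The pattern of the half-site TGTTCT facing its reverse complement across any 3 bases was found in 3 of 32851 windows over all genes (0.00913%), and 1 of the 3 belonged to Sgk1. That window, chr10:21993640-21993889 on the plus strand, is shown because it holds this match, 189 to 175 bases before the start. Capitals mark the palindrome and a further copy of its half-site, TGTTCT.

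Sgk1 upstream window: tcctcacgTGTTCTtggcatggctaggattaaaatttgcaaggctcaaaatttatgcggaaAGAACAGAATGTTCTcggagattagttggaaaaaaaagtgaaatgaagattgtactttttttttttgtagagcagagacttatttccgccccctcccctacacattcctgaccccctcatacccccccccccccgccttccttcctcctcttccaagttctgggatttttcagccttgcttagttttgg

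The half-site alone is common, present on either strand in 16.1% of all windows, and it also occurred in 2 other Sgk1 windows and in 1 Tsc22d3 window. The looser core TGTNC, repeated in the same inverted way across 3 bases and including the palindrome, was in 0.387% of windows and, among these genes, only in the same Sgk1 window. The CRE TGACGTCA (1.55% of windows) and the forkhead motif TGTTTAC (3.17%) had no match in the 12 windows. These are matches of letters, and no binding was measured. Sgk1 (chromosome 10, 21882184 to 21999903, plus strand) has 13 annotated transcripts, and the gene-level value does not show which start was used.

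Sgk1 rose in insulin at point 2. Its 3 insulin libraries there read 22.3, 34.8 and 30.6 FPKM and its PBS libraries 8.62, 10.8 and 5.35. Every insulin library was more than the highest PBS library of any point, 10.8 FPKM. The difference was 1.73 (SE 0.22, adjusted p = 3.86e-05), from means of 29.2 ± 6.35 and 8.26 ± 2.75 FPKM, 3.54-fold. At point 3 insulin read 15.4, 15.7 and 10.3 and PBS 7.23, 8.15 and 7.17, still apart, with a difference of 0.77 (SE 0.22, adjusted p = 0.0282). The call at point 3 ended without the filter (adjusted p = 0.065) and without insulin replicate 1 (0.101) or 2 (0.107) or PBS replicate 1 (0.0776), 2 (0.056) or 3 (0.0851). At points 1, 4 and 5 the libraries overlapped and the differences were -0.03, 0.24 and -0.09. In PBS, Sgk1 held group means of 7.52 to 8.91 FPKM and was not found to vary among points (adjusted p = 0.984), while in insulin it varied (adjusted p = 7.35e-06).

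Zbtb16, which encodes the zinc finger repressor PLZF, was low at point 1 in both treatments, at 2.07 ± 0.821 FPKM in insulin and 2.36 ± 0.574 in PBS. The PBS means of points 2 to 5 were 14.6 ± 4.44, 17.9 ± 1.22, 11.5 ± 1.25 and 5.85 ± 1.68 FPKM. In insulin it held a narrow band from point 2 on, with means of 10.8 ± 0.985, 11.8 ± 1.84, 11.6 ± 2.17 and 11.4 ± 0.598. The levels varied among points in both treatments (adjusted p = 1.27e-07 in insulin and 1.62e-07 in PBS). At point 5 the insulin libraries read 11.8, 11.6 and 10.7 FPKM and the PBS libraries 4.55, 5.26 and 7.74. Insulin was higher in all 3, by 0.88 (SE 0.21, adjusted p = 0.00565), or 1.94-fold in the means. At point 3 the order was the other way, with 10.1, 13.8 and 11.6 in insulin and 19.3, 17 and 17.3 in PBS. Those libraries did not overlap, but the difference of -0.56 was not called (adjusted p = 0.0809), although it was in a fit of those 6 libraries alone (adjusted p = 0.0473). Zbtb16 lies on chromosome 9 (48654297 to 48836222, minus strand).

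Tat encodes tyrosine aminotransferase, the first enzyme of tyrosine breakdown and a classical glucocorticoid-induced gene of hepatocytes. It was higher in insulin at points 4 and 5. The insulin libraries of point 4 read 1332, 985 and 1605 FPKM and the PBS libraries 484, 528 and 596. At point 5 they read 990, 1165 and 1609 against 687, 614 and 490. At both points the lowest insulin library lay above the highest PBS library. The differences were 1.26 (SE 0.22, adjusted p = 0.000802) and 1.05 (SE 0.22, adjusted p = 0.00219), or 2.44-fold and 2.1-fold in the means.

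At point 1 the order was the reverse: the insulin libraries read 394, 655 and 364 FPKM and the PBS libraries 773, 699 and 752. They did not overlap, and the difference was -0.70 (SE 0.22, adjusted p = 0.541). From point 1 to point 4, the points picked from earlier results, the difference changed by 1.96 (SE 0.30, adjusted p = 0.000996). In insulin the mean was 471 ± 160 FPKM at point 1 and from 1073 to 1307 FPKM at the other points, and it varied among points (adjusted p = 7.86e-05). In PBS it lay between 536 and 789 FPKM and was not found to vary among them (adjusted p = 0.37). At points 2 and 3 the insulin libraries again lay wholly above PBS, with differences of 0.50 (adjusted p = 0.233) and 0.45 (adjusted p = 0.177). Tat lies on chromosome 8 (109990437 to 109999803, plus strand).

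**Figure D3:**
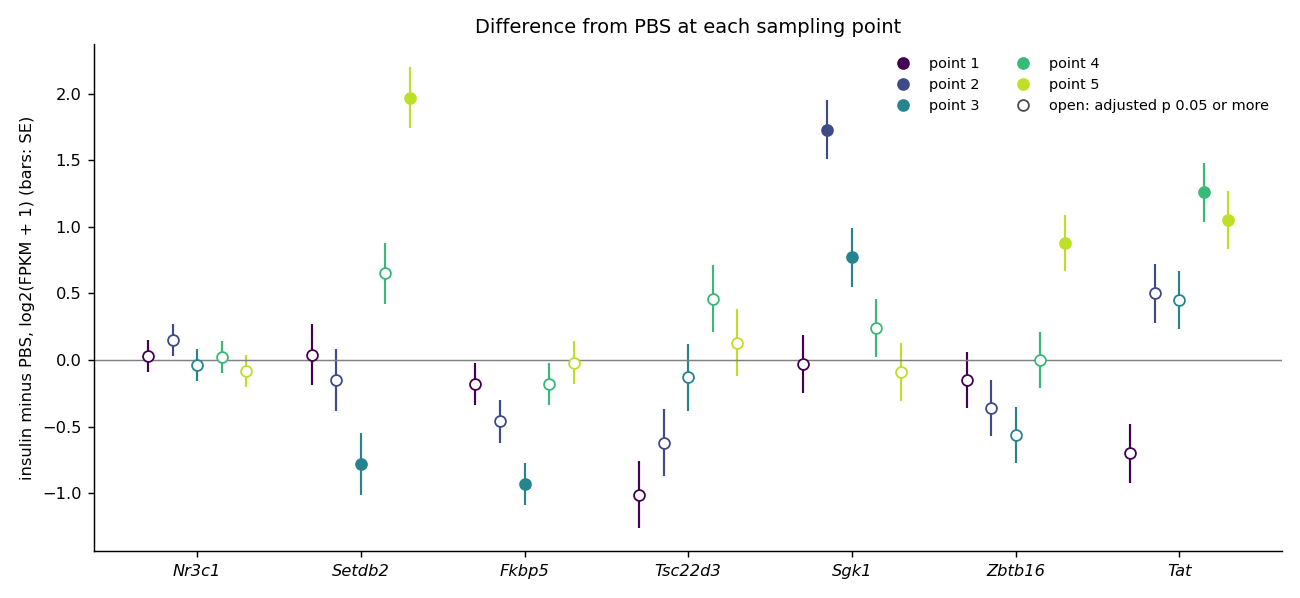
Insulin minus PBS on the log2(FPKM + 1) scale with its SE for each of the 7 genes at points 1 to 5, with filled circles for called differences (adjusted p under 0.05) and open circles for the rest. The called values are Sgk1 1.73 and 0.77 at points 2 and 3, Fkbp5 -0.93 and Setdb2 -0.78 at point 3, Tat 1.26 and 1.05 at points 4 and 5, and Zbtb16 0.88 and Setdb2 1.97 at point 5.

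Whether the insulin-PBS difference depended on the point was tested with an F test over all 5 points. It was called in 4 of the 7 genes, Sgk1 (adjusted p = 0.00353), Zbtb16 (0.0393), Tat (0.00287) and Setdb2 (0.000128), and in 1.77% of all genes tested. Tsc22d3 was not called as deposited (adjusted p = 0.0992) but was under median-ratio scaling (0.0451) and quantile normalization (0.0475). In insulin 6 of the 7 genes varied among points, all but Nr3c1, and 13.3% of all genes tested did. In PBS 3 of the 7 varied, Fkbp5, Tsc22d3 and Zbtb16, against 3.27% of all genes. The Zbtb16 call on the F test was lost without the filter (adjusted p = 0.105), with a pseudocount of 0.1 (0.0823), and without insulin replicate 1 (0.211), 2 (0.0706) or 3 (0.148) or PBS replicate 1 (0.397) or 2 (0.181). Those of Sgk1 (0.0519 without insulin replicate 2, 0.0837 without PBS replicate 3) and Tat (0.0604 without insulin replicate 3, 0.0642 without PBS replicate 1) each depended on 2 replicates.

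By Pearson's r on the log2 scale over the 30 libraries, the genes most like each of the 7 differed from one to the next. These libraries form 10 groups, so r mostly follows group means and is given as a description. Fkbp5 was most like Mtss1 (0.95) and Itgb3 (0.91), and Sgk1 most like Nr4a1 (0.90). Tat was most like Igfbp1 (0.85) and Ddit4 (0.84), and Zbtb16 most like Il1r1 (0.87) and Hnf4a (0.86). Tsc22d3 was nearest Ppp1r3b (0.80) and Hspa1a (0.76). Nr3c1 had no gene above 0.66, the value of both Nectin3 and Atf1, and the gene after Phf11c for Setdb2 was Brcc3 (0.85). Among the 7 genes themselves the highest r was that of Fkbp5 with Zbtb16 (0.77). After the group means were taken out, no pair exceeded 0.41, the value of Tat with Setdb2.

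Of 16 genes of the chaperone complex that holds the receptor, none was called at points 1 and 2, 1 was lower at point 3, 2 were lower at point 4, and at point 5 there were 3 lower and 1 higher. Over all genes tested 7.26%, 10.4% and 16.1% were called lower at points 3, 4 and 5, and 2.96% higher at point 5. Fkbp4, encoding the co-chaperone FKBP52 that competes with FKBP51, was lower at points 3 (-0.53, adjusted p = 0.0291) and 5 (-0.48, adjusted p = 0.0261). Its call at point 3 was held in only 1 of 6 fits that each left out a library, and that at point 5 in 3 of 6 (adjusted p up to 0.159). The call at point 5 was also lost under median-ratio scaling (adjusted p = 0.0868). Ptges3, the p23 co-chaperone, was higher at point 5 (0.35, adjusted p = 0.0333), and this was held in 1 of 6 such fits. Ahsa1 and Stip1 at point 4, and Stip1 and Cdc37 at point 5, were called lower as deposited and not under either rescaling.

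Of 13 measured genes for steroid metabolism and transport, 1 was called lower at each of points 2, 3, 4 and 5, and none higher. Over all genes tested 0.736%, 7.26%, 10.4% and 16.1% were called lower at those points. Under median-ratio scaling 1 of the 13 was called higher at point 4. H6pd was the gene called lower at points 2, 3 and 4. It encodes the hexose-6-phosphate dehydrogenase of the endoplasmic reticulum, which supplies the NADPH with which Hsd11b1 regenerates active glucocorticoid. At point 3 the insulin livers averaged 53.9 ± 1.98 FPKM of H6pd and the PBS livers 115 ± 15.7 (difference -1.07, SE 0.13, adjusted p = 1.65e-05). The differences at points 2 and 4 were -0.59 (adjusted p = 0.0161) and -0.68 (adjusted p = 0.00199), and it was not called at point 1 or 5 (-0.19, adjusted p = 0.317). The calls at points 3 and 4 were held without each of the 6 libraries, and that at point 2 in 2 of 6 such fits. Hsd11b1 itself was called at no point, with means of 270 ± 73.6 and 278 ± 12.3 FPKM at point 3. The mineralocorticoid receptor gene Nr3c2 was lower at point 5 (-0.51 as deposited), and not called under either rescaling.

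Of 26 coregulators of the receptor, 1 was lower at point 2, 4 lower and 1 higher at point 3, 3 lower and 1 higher at point 4, and 6 lower and 1 higher at point 5. Of all genes tested, 0.736% were called lower at point 2. At points 3, 4 and 5, 7.26%, 10.4% and 16.1% were called lower and 2.19%, 2.82% and 2.96% higher. With median-ratio scaling the balance shifted, to 2 lower and 3 higher, 2 lower and 2 higher, and 3 lower and 1 higher at those points. Over all genes tested that scaling gave 488 lower and 689 higher, 814 and 924, and 1119 and 1166. As deposited, the single higher gene was Ppargc1a, a coactivator of fasting metabolism, and it was called higher under both rescalings too. Among the lower ones at point 5 were Arid1a, a subunit of the SWI/SNF chromatin remodeller (-0.76, adjusted p = 0.000866), Ehmt2, an H3 lysine 9 methyltransferase (-0.83, adjusted p = 0.00106), and Carm1, an arginine methyltransferase (-0.75, adjusted p = 0.00418). Ehmt2 read 5.81 ± 0.163 FPKM in insulin and 11.1 ± 1.16 in PBS. These 3 calls held under both rescalings and without each of the 6 libraries. In the list of Setdb2 relatives, where 4 genes were tested, Ehmt1 was lower at point 3 and Ehmt2 at points 4 and 5, 1 of 4 at each point, and none was higher. The Ehmt1 call was held in 3 of 6 fits that each left out a library. That of Ehmt2 at point 4, where its libraries overlapped, was held in 2 of 6 (adjusted p up to 0.242) and under neither rescaling.

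Relatives of Tsc22d3, Sgk1, Fkbp5 and Zbtb16 were counted apart from them. Of 13 tested, none was called at points 1 and 2, 1 was higher and 5 lower at point 3, 1 higher and 2 lower at point 4, and 7 lower at point 5. The shares over all genes tested were 7.26%, 10.4% and 16.1% lower and 2.19%, 2.82% and 2.96% higher. Under median-ratio scaling the counts were 2 higher and 2 lower, 2 higher and 1 lower, and 5 lower. The calls over all genes tested were then 689 higher and 488 lower, 924 and 814, and 1166 and 1119. Tsc22d2 was higher at point 3 (1.24, adjusted p = 0.00966). Sgk3, a kinase close to Sgk1, was higher at point 4 (0.71, adjusted p = 0.0041), not at point 2 where Sgk1 was called. Tsc22d4 (-0.89, adjusted p = 0.00161) and Fkbp8 (-0.77, adjusted p = 0.00285) were among those lower at point 5.

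Of 41 further genes known as glucocorticoid targets, 39 were tested. The first point had 1 lower, the second 5 higher and 2 lower, and the third 5 higher and 3 lower. All genes tested gave 0.00736% lower at the first point and 0.618% higher and 0.736% lower at the second. At the third they gave 2.19% higher and 7.26% lower. At point 4, 9 were higher and none lower, where 2.82% of all genes tested were called higher and 10.4% lower. At point 5, 8 were higher and 3 lower, where 2.96% of all genes were called higher and 16.1% lower. Under median-ratio scaling the counts at point 5 were 13 higher and none lower. Over all genes tested, the higher calls there rose from 402 to 1166 and the lower ones fell from 2194 to 1119. The median difference of the 39 was -0.26, 0.00, -0.04, 0.20 and 0.20, beside the medians of all genes given above. Some of these genes were named in earlier results on these libraries, so the counts describe the list.

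Lpin1, Angptl4, Per1 and Pik3r1 were each called lower at one point and higher at another, as only Setdb2 was among the 7 genes. The lower call of Setdb2, at point 3, was lost under both rescalings. Lpin1 is a phosphatidate phosphatase that also acts as a coactivator in fasting. At point 1 it read 5.88 ± 2.04 FPKM in insulin against 24.6 ± 12.1 (-1.83, adjusted p = 0.0107), a call held in 4 of 6 fits that each left out a library. At point 5 it read 181 ± 47.6 and 38.9 ± 7.47 (2.17, adjusted p = 3.44e-05). Angptl4, an inhibitor of lipoprotein lipase, was lower at point 2 (-1.89, adjusted p = 1.82e-08) and point 3 (-0.68, adjusted p = 0.00562) and higher at point 5 (0.59, adjusted p = 0.00751). Slc38a2, an amino acid transporter, was higher at points 2 (1.41, adjusted p = 0.00194) and 3 (1.60, adjusted p = 0.000253), the points at which Sgk1 was called. Nfkbia, encoding the NF-kappa-B inhibitor, was lower at point 2 (-0.95, adjusted p = 0.00119). At point 1 the insulin libraries of Per1, Mt1 and Mt2 lay wholly below PBS, but none of these genes was called there. The differences were -0.84 (adjusted p = 0.0936), -1.96 (0.118) and -1.95 (0.16). Per1, a clock gene known as a receptor target, read higher at point 2 (0.75, adjusted p = 0.0134) and lower at point 5 (-0.49, adjusted p = 0.0342). Pik3r1, the regulatory subunit of PI3-kinase, was higher at point 3 (0.63, adjusted p = 0.0269) and lower at point 5 (-0.54, adjusted p = 0.0338). The lower calls of Per1 and Pik3r1 at point 5 were absent under median-ratio scaling and quantile normalization. Pik3r1 and the later points of Per1 were singled out after their values were seen.

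**Figure D4:**
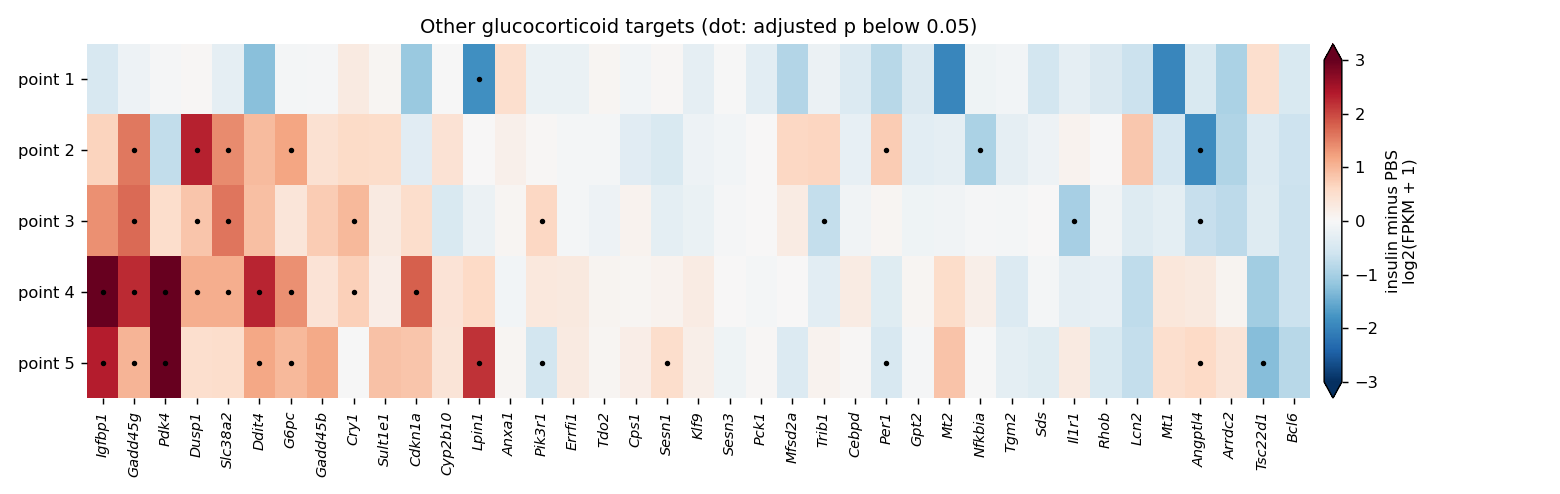
Insulin minus PBS on the log2(FPKM + 1) scale as a colour scale (red higher, blue lower) for the 39 further glucocorticoid targets tested (columns) at points 1 to 5 (rows), with a dot on each called difference. The row of point 1 has a single dot, at Lpin1 (-1.83), and the row of point 4 has 9 dots, all on red cells.

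Some cell type markers differed between treatments at points 3, 4 and 5. There, 7.26%, 10.4% and 16.1% of all genes tested were called lower. The marker calls are on values as deposited. None of 5 stellate cell or 6 hepatocyte markers was called at any point, and 1 of 3 cholangiocyte markers tested was lower at point 4. The endothelial marker sums of insulin and PBS did not overlap at point 3 (54.4 to 60.8 against 63 to 82.7 FPKM) or point 4 (49.4 to 61.7 against 64.6 to 80.7 FPKM), with 1 of 6 markers called lower at each. At point 5, where Setdb2, Tat and Zbtb16 were called, the endothelial marker sum was 42.9 to 52.3 FPKM in insulin and 64.6 to 67.9 in PBS, and 4 of 6 endothelial markers (Stab2, Kdr, Fcgr2b and Oit3) were called lower. At point 4 the Kupffer cell sum was 66.8 to 83.9 FPKM in insulin and 86.9 to 185 in PBS, and 2 of 6 Kupffer cell markers (Clec4f and Cd5l) were called lower. The sum of 5 red cell markers at point 5 was 219 to 262 FPKM in insulin and 311 to 458 in PBS, with 1 of 5 (Alas2) called lower. Hepatocyte sums at point 5 overlapped, at 36817 to 47776 and 37828 to 49101 FPKM. The part of these cell types in the differences of the 7 genes was not tested.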

How the data were processed

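Poly(A) RNA of 30 mouse livers was sequenced with a directional kit, per the labels' protocols. HISAT2 2.1.0, SAMtools 1.9 and StringTie 2.0.3 were used with GRCm38 (mm10), per the submitters' processing notes. No annotation or strand setting is given in the sources used here. FPKM values for each gene, as deposited, had been scaled by the authors to length and mapped fragments. Cells without a value (32.2%, touching 893 of the genes tested) were set to 0. At the best-fitting depth only 37.8% to 49.5% of low values of genes with a single transcript over 300 bases were whole reads within 0.05, so depth is unknown and no count test was run. No libraries of a group were duplicates (identical values in at most 0.0174% of genes). The series design calls the samples biological triplicates. Where they were not separate animals, the p-values reflect spread among samples alone.

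The 13589 genes that reached 1 FPKM in 3 or more libraries were fitted as log2(FPKM + 1) with limma 3.58.1 in R 4.3.3, with 10 group means, a trend with level and 20 residual degrees of freedom. Contrasts and F tests were two-sided, with Benjamini-Hochberg adjustment over all genes tested and a threshold of 0.05. The code was tested on simulated data. The 7 genes, the lists, the comparison of point 4 with point 1 and the alternatives were chosen with earlier results of these data known. Besides the 7 genes, the text names by rule up to 4 genes of each list per comparison, by smallest adjusted p, and the 2 genes with the highest r to each of the 7, of which 1 is not reported here. Genes beside Setdb2, and list members given only to say which were called, were chosen after their values were seen. Positions are from GENCODE M21 and promoter windows from RefSeq (GRCm38.p6). Alternatives were median-ratio scaling, quantile normalization, a pseudocount of 0.1, dropping the filter or setting it at a mean of 5 FPKM, a replicate block, the series as a random effect, only the 6 libraries of a point, and each library (for differences at a point) or each replicate of a treatment (for tests across points) left out.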

Additional observations from a re-analysis of the deposited data

Results flagged for a closer look

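In 4 of the 7 genes, and in 1.77% of all genes tested, the F test called the insulin-PBS difference as depending on the point. These calls held under 13 of 13 alternatives for Setdb2, 11 each for Tat and Sgk1, and 5 for Zbtb16. For Setdb2 (adjusted p = 0.000128) the difference ran from -0.78 at point 3, a call lost under both rescalings, to 1.97 at point 5. For Tat (adjusted p = 0.00287) it ran from -0.70 at point 1 to 1.26 at point 4. For Sgk1 (adjusted p = 0.00353) it ran from -0.09 at point 5 to 1.73 at point 2. For Zbtb16 (adjusted p = 0.0393) it ran from -0.56 at point 3 to 0.88 at point 5.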

How the results depend on the processing

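Of the 8 calls at single points, those of Sgk1 at point 2, Fkbp5 at point 3, Tat at points 4 and 5, and Zbtb16 and Setdb2 at point 5 held under all 14 alternatives. Sgk1 at point 3 held under 8 and Setdb2 at point 3 under 7. Of the 7 genes, those called at point 3 numbered 1 without the filter and 1 to 3 with a library left out (3 as reported). Those called at point 4 numbered 2 under median-ratio scaling, quantile normalization and the replicate block, and 1 to 2 with a library left out (1 as reported). For the change from point 1 to point 4 there was 1 without the filter and 1 with the replicate block, and 1 to 2 with a replicate left out (2 as reported). The F test over points called 2 to 3 with a replicate left out, 3 without the filter, with a pseudocount of 0.1 or with the replicate block, and 5, with Tsc22d3 added, under either rescaling (4 as reported). The replicate numbers did not pair the samples: same-numbered libraries correlated at -0.11 to 0.12, above 0.1 in 1 of 15 pairs, and 5 correlated best with their own number. The block changed the calls of Setdb2 at point 4 (adjusted p = 0.047), Zbtb16 in the F test (0.0503) and Tsc22d3 from point 1 to 4 (0.0504). Signs turned only in differences that were not called. Under median-ratio scaling and quantile normalization they became 0.04 and 0.04 for Sgk1 at point 1, 0.12 and 0.08 for Nr3c1 and 0.04 and 0.03 for Tsc22d3 at point 3, and 0.12 and 0.08 for Nr3c1, 0.19 and 0.16 for Fkbp5 and 0.10 and 0.11 for Sgk1 at point 5. For the change from point 1 to 4 they became 0.07 and 0.04 for Nr3c1 and 0.08 and 0.08 for Fkbp5 (0.00 with a pseudocount of 0.1). With a library left out the differences at point 1 ran from -0.05 to 0.11 for Nr3c1, -0.31 to 0.02 for Fkbp5, -0.24 to 0.14 for Sgk1, -0.31 to 0.09 for Zbtb16 and -0.08 to 0.17 for Setdb2. Those of Nr3c1 ran from -0.15 to 0.02, -0.08 to 0.15 and -0.15 to 0.01 at points 3, 4 and 5. Zbtb16 ran from -0.12 to 0.13 at point 4, and Fkbp5 from -0.15 to 0.14 and Tsc22d3 from -0.12 to 0.26 at point 5. The changes from point 1 to 4 ran from -0.11 to 0.13 for Nr3c1, -0.32 to 0.23 for Fkbp5 and 0 to 0.36 for Zbtb16. Over all genes, the calls with a library or replicate left out ran from 0 to 62 at point 1 (1 as reported), 84 to 456 at point 2 (184), 583 to 845 at point 3 (1284), 635 to 2396 at point 4 (1799), 1121 to 2545 at point 5 (2596), 70 to 122 in the F test (241), 34 to 67 from point 1 to 4 (107), 876 to 1629 in insulin (1804) and 128 to 395 in PBS (444). With the block they were 5, 450 and 1957 at points 1, 2 and 3, without the filter 810 at point 3, 145 in the F test and 57 from point 1 to 4, with the filter at a mean of 5 FPKM 975 in insulin, and at point 1 from 0 to 5 over the settings other than libraries left out. With only the 6 libraries of a point they were 62, 101 and 1115 at points 2, 4 and 5. Fits with fewer libraries test with fewer degrees of freedom. The cause of the other changes was not tested.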
